A study of Mus musculus with 12 samples.

Results

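Pericytes are the cells that wrap capillaries and small venules, and 8 genes that mark them were followed in 12 mouse pancreas tumours. The genes were Abcc9, Kcnj8, Rgs5, Cspg4, Notch3, Mcam, Higd1b and Angpt1, taken by symbol from the probe sets that the platform annotation assigned to exactly 1 gene. All 8 were measured, each by 1 probe set, among 30142 genes tested. Each tumour came from a separate mouse and was read on 1 array, and there were 3 tumours in each of 4 groups: FAP depleted, FAP-TK control, aSMA depleted and aSMA-TK control. All mice were PKT mice, a genetic model of pancreatic cancer. TK is a thymidine kinase that makes cells sensitive to ganciclovir, so that cells positive for fibroblast activation protein (FAP) or alpha smooth muscle actin (aSMA) can be removed. The labels give ganciclovir at 50 ug per kg for every mouse and mark the controls only as undepleted, so whether the controls received the drug is not clear. Strain background, age, sex and the promoter that drove TK in each line were not stated in the labels.

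Pericytes share a basement membrane with the endothelium and depend on signals from it. Endothelial platelet-derived growth factor B recruits them through the receptor Pdgfrb, and endothelial Jagged and Delta ligands act on their receptor Notch3. In return, pericytes secrete angiopoietin 1, encoded by Angpt1, which acts on the endothelial receptor Tek. Abcc9 and Kcnj8 encode the regulatory and the pore-forming subunit of the ATP-sensitive potassium channel of mural cells, which couples metabolism to vessel tone. Rgs5 encodes a regulator that shortens G protein signalling. Cspg4 encodes the NG2 proteoglycan of the cell surface, Mcam an adhesion molecule that endothelial cells also carry, and Higd1b a member of the HIG1 domain family. Some pericytes and all vascular smooth muscle cells make alpha smooth muscle actin, so they are among the cells an aSMA-directed depletion aims at.

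Abcc9 and Kcnj8 are neighbours on mouse chromosome 6 with no gene between them in the RefSeq annotation of GRCm38.p6, and both were among the members whose values did not overlap between the aSMA line groups. Rgs5 likewise lies next to Rgs4, another regulator of the same subfamily, on chromosome 1. The promoters of the channel pair are shown because these 2 genes had the largest differences among the members in that comparison. Each runs from 250 bases before to 50 bases after the annotated start on the minus strand, chr6:142702225-142702524 for Abcc9 and chr6:142571565-142571864 for Kcnj8, from the RefSeq promoter table (GRCm38.p6). Capitals mark the letters TGGGAA, the core of the site bound by RBPJ, the DNA-binding partner of activated Notch receptors, and the GC box GGGCGG, each on either strand, and the letters run 5′ to 3′ along the strand of the gene.
Abcc9: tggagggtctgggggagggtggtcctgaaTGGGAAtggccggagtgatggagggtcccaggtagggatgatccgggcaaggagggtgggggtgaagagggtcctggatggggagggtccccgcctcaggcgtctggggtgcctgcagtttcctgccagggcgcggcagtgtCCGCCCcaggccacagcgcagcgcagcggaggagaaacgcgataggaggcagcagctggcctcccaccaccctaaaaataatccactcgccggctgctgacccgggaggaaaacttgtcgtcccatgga
Kcnj8: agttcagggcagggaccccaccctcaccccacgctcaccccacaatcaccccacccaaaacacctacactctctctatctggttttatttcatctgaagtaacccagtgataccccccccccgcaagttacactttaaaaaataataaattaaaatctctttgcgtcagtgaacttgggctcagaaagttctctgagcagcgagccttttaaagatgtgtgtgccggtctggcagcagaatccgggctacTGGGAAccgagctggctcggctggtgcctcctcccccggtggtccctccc
The Abcc9 window holds the TGGGAA letters at position -221 relative to the start and a GC box at -79. The Kcnj8 window holds TGGGAA at position 0 and no GC box. Promoters were listed for 6 of the 8 members (Abcc9, Kcnj8, Rgs5, Cspg4, Notch3 and Mcam), of which 2 held TGGGAA, against 25.6% of all 32851 promoters of this length. A GC box stood in 4 of the 6, against 35.7% of all promoters. None of the 6 held the letters TATAAA on either strand, against 13.6% of all, and none held the CArG box of serum response factor, against 1.63% of all. The TGGGAA and GC box matches do not overlap in these windows.

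Several properties of the arrays bear on every value. Values are log2 units after quantile normalization of the deposited values, and they are not turned into folds because their range of 1.64 to 19.93 is wider than a scanner records. The separation between positive and negative control probe sets was low on 3 arrays of the FAP line, namely 2.69 in FAP depleted replicate 2 and 2.97 and 2.99 in FAP-TK control replicates 1 and 3. On the other 9 arrays it lay between 4.32 and 4.89. Arrays of the aSMA line had lower negative-control medians (4.46 to 4.88) than arrays of the FAP line (5.46 to 6.49), and these ranges do not overlap, so line and array background cannot be told apart. Fap was below the controls in all FAP depleted tumours, by -1.11 ± 0.37 (SE, n = 3 per group, adjusted p = 1.00). Acta2 did not show the labelled loss on average (1.68 ± 1.71, adjusted p = 0.949 by limma), so the other depleted group is called the tumours labelled aSMA depleted. Acta2 values ran from 10.13 to 15.28 in those tumours, the lowest below every aSMA-TK control (10.85 to 12.26).

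The members were dim. A value counted as above background when its deposited value exceeded the 95th percentile of the 5222 negative-control probe sets of its array, which 4518 of the 30142 genes did on at least 3 arrays. Rgs5 was above it on 6 of 12 arrays, which were all 3 labelled aSMA depleted, 2 aSMA-TK controls and FAP-TK control replicate 2. Mcam was above it on 2 arrays, and Abcc9, Kcnj8, Cspg4, Notch3, Higd1b and Angpt1 were above it on none. The median share of negative controls that lay below the gene was 95.2% for Rgs5, 92.0% for Mcam, 76.2% for Angpt1 and 74.1% for Abcc9. It was 53.6% for Notch3, 38.3% for Cspg4, 36.9% for Kcnj8 and 24.8% for Higd1b. Differences of the last 4 genes are therefore differences between signals in the middle or the lower part of the negative-control range. In these bulk samples, fewer pericytes and less of a transcript per pericyte cannot be told apart.

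**Figure D1:**
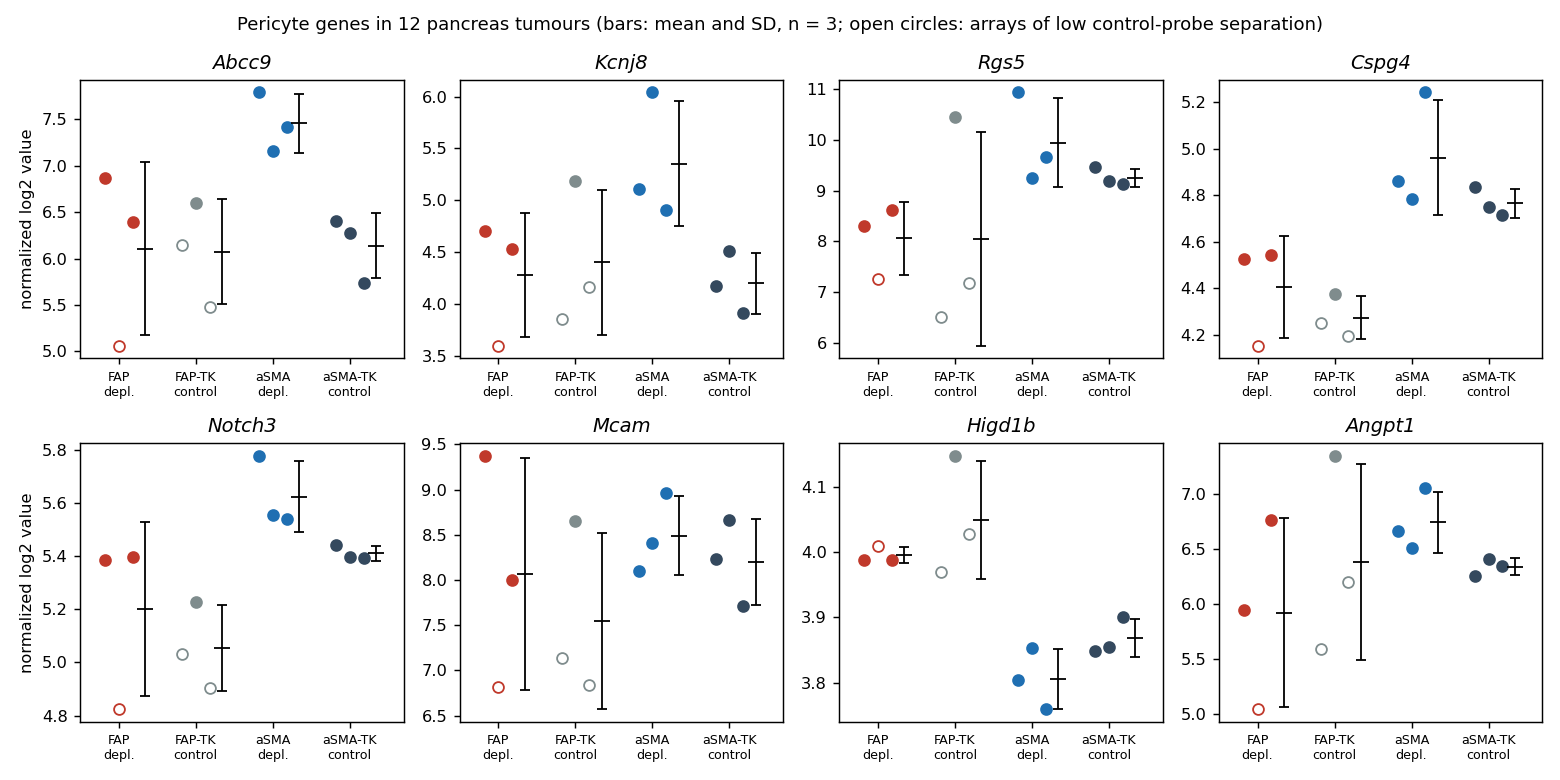
Quantile-normalized log2 values of the 8 pericyte genes in each tumour (points) with the mean and SD of each group of 3 beside them, 1 panel and 1 vertical scale per gene; open circles are the 3 arrays of low control-probe separation. Abcc9 lay between 7.16 and 7.79 in the tumours labelled aSMA depleted, above the aSMA-TK controls at 5.74 to 6.40, and the FAP depleted and FAP-TK control points overlap for every gene.

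In the aSMA line, 7 of the 8 pericyte genes averaged higher in the tumours labelled aSMA depleted than in the aSMA-TK controls, and Higd1b averaged lower. Differences were above 0 for 53.2% of all genes. For 4 of them, Abcc9, Kcnj8, Notch3 and Angpt1, every tumour labelled aSMA depleted lay above every control, which held for 7.43% of all 30142 genes. None passed the test across all genes, in which 0% of genes were called in this comparison by limma with Benjamini-Hochberg adjustment. At an unadjusted p under 0.05, 2 members were higher, against 2.47% of all genes. The median difference of the 8 members was 0.35, against 0.014 for all genes.

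The channel genes came first in size. Abcc9 had values of 7.79, 7.16 and 7.42 in the tumours labelled aSMA depleted, against 6.40, 6.27 and 5.74 in the aSMA-TK controls. The groups were separate, and the lowest depleted tumour stood above the highest control. The difference was 1.32 ± 0.45 (SE, n = 3 per group), with an adjusted p of 0.944 by limma. The exact permutation p was 0.1, and groups of this size cannot give a lower one. Abcc9 exceeded between 84.2% and 89.4% of the negative controls in the tumours labelled aSMA depleted, and between 61.6% and 78.3% in the aSMA-TK controls. Kcnj8 had values of 5.11, 6.04 and 4.91 in the tumours labelled aSMA depleted, against 4.18, 4.51 and 3.92 in the aSMA-TK controls. These groups were separate too, with replicate 2 of the tumours labelled aSMA depleted the highest. Kcnj8 exceeded between 47.4% and 69.7% of the negative controls in the tumours labelled aSMA depleted, and between 25.9% and 46.5% in the aSMA-TK controls. The Kcnj8 difference was 1.15 ± 0.43 (adjusted p = 0.944 by limma, exact permutation p = 0.1). With an offset of 50 added to the values before the log it was 0.43, and it stood at 0.81 to 1.37 with 1 array left out at a time.

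The Notch receptor gene Notch3 was at 5.78, 5.55 and 5.54 in the tumours labelled aSMA depleted, against 5.44, 5.40 and 5.39 in the aSMA-TK controls. The groups did not overlap, but they stood only 0.21 ± 0.16 apart (adjusted p = 0.944 by limma). Angpt1, the ligand, was at 6.67, 6.51 and 7.05 in the tumours labelled aSMA depleted, against 6.26, 6.41 and 6.35 in the aSMA-TK controls. Its groups were also separate, with a difference of 0.41 ± 0.48 (adjusted p = 0.951 by limma). The SE pools the spread of all 4 groups, and the Angpt1 values of the FAP line spread more widely than those of the aSMA line.

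The other members overlapped between these groups. Rgs5 was at 10.93, 9.25 and 9.66 in the tumours labelled aSMA depleted, against 9.46, 9.18 and 9.13 in the aSMA-TK controls. Its difference of 0.69 ± 0.89 (adjusted p = 0.956 by limma) rested on replicate 1 of the tumours labelled aSMA depleted, without which it was 0.20. Mcam was at 8.10, 8.41 and 8.96 in the tumours labelled aSMA depleted, against 8.23, 8.66 and 7.72 in the aSMA-TK controls, a difference of 0.29 ± 0.65. Mcam values of the groups were intermixed, and the difference was 0.045 with 1 array left out at its lowest. Cspg4 was at 4.86, 4.78 and 5.24 in the tumours labelled aSMA depleted, against 4.83, 4.75 and 4.71 in the aSMA-TK controls. Replicates 1 and 3 of the tumours labelled aSMA depleted lay above all controls and replicate 2 lay among them, and the difference of 0.20 ± 0.14 was 0.056 with 1 array left out at its lowest. Higd1b was flat, at 3.80, 3.85 and 3.76 in the tumours labelled aSMA depleted, against 3.85, 3.86 and 3.90 in the aSMA-TK controls. Its difference was -0.063 ± 0.08 (adjusted p = 0.952 by limma).

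**Figure D2:**
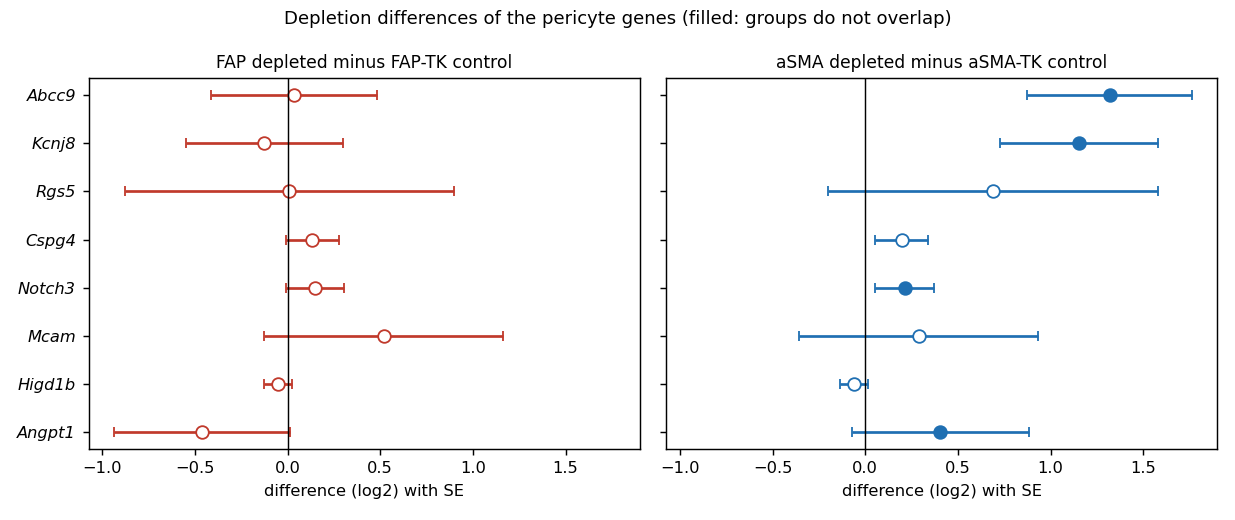
Differences on the log2 scale (points) with their SE for the 8 pericyte genes, FAP depleted minus FAP-TK control on the left and aSMA depleted minus aSMA-TK control on the right; filled points mark genes whose 2 groups do not overlap. In the aSMA line 4 genes are filled, led by Abcc9 at 1.32 and Kcnj8 at 1.15, and in the FAP line none is.

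In the FAP line, 5 of the 8 members averaged higher in FAP depleted tumours and 3 lower, and the groups overlapped for all 8. Differences were above 0 for 59.9% of all genes. Of all genes, 8.1% were separate between these groups in one or the other direction, and 0% were called. No member had an unadjusted p under 0.05, which 3.71% of all genes had. The median difference of the members was 0.022, against 0.039 for all genes. The adjusted p was 1.00 for each member.

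Abcc9 was at 6.87, 5.06 and 6.40 in FAP depleted tumours, against 6.15, 6.60 and 5.48 in FAP-TK controls, a difference of 0.034 ± 0.45. Kcnj8 was at 4.71, 3.60 and 4.53 in FAP depleted tumours, against 3.86, 5.19 and 4.17 in FAP-TK controls, a difference of -0.12 ± 0.43. For both channel genes the lowest of the 6 values was FAP depleted replicate 2, an array of low separation. Rgs5 was at 8.30, 7.26 and 8.62 in FAP depleted tumours, against 6.51, 10.44 and 7.19 in FAP-TK controls. Its difference of 0.0090 ± 0.89 came with the widest spread of any member within a group, as FAP-TK control replicate 2 lay far above the other controls. Angpt1 was at 5.95, 5.04 and 6.76 in FAP depleted tumours, against 5.59, 7.35 and 6.20 in FAP-TK controls. That difference was -0.46 ± 0.48, and it was 0.022 without FAP-TK control replicate 2.

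Among the genes of the surface proteins and the receptor, Mcam, Cspg4 and Notch3, none separated the groups in this line. Their values varied alike over its 6 arrays, 3 of low separation among them, with Pearson r of 0.84 to 0.99. Mcam was at 9.38, 6.81 and 8.00 in FAP depleted tumours, against 7.14, 8.66 and 6.84 in FAP-TK controls, a difference of 0.52 ± 0.65. Cspg4 was at 4.53, 4.15 and 4.54 in FAP depleted tumours, against 4.25, 4.37 and 4.19 in FAP-TK controls, a difference of 0.13 ± 0.14. In both genes FAP depleted replicate 2 was the lowest array of the line and the other FAP depleted values lay at or near the top. Notch3 was at 5.39, 4.82 and 5.40 in FAP depleted tumours, against 5.03, 5.23 and 4.90 in FAP-TK controls, a difference of 0.15 ± 0.16. Higd1b was at 3.99, 4.01 and 3.99 in FAP depleted tumours, against 3.97, 4.15 and 4.03 in FAP-TK controls, a difference of -0.053 ± 0.08.

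These values went with the separation of the arrays. For 6 of the 8 members, Abcc9, Kcnj8, Rgs5, Cspg4, Notch3 and Mcam, all 3 low-separation arrays lay below all 3 other arrays of the FAP line, as was the case for 25.4% of all genes. Rgs5 reached 6.51 to 7.26 on the 3 low-separation arrays and 8.30 to 10.44 on the other 3, and Mcam reached 6.81 to 7.14 and 8.00 to 9.38. FAP depleted replicate 2 held 1 of the 3 lowest values of the 12 for 7 members, FAP-TK control replicate 1 for 6 and FAP-TK control replicate 3 for 5. Without the 3 arrays, which leaves 2 FAP depleted tumours and 1 FAP-TK control, the differences were 0.036 for Abcc9, -0.57 for Kcnj8 and -1.98 for Rgs5. They were 0.16 for Cspg4, 0.16 for Notch3, 0.032 for Mcam, -0.16 for Higd1b and -0.99 for Angpt1 on the same arrays. FAP-TK control replicate 2 is then the only control. What part the separation had in the differences was not tested.

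**Figure D3:**
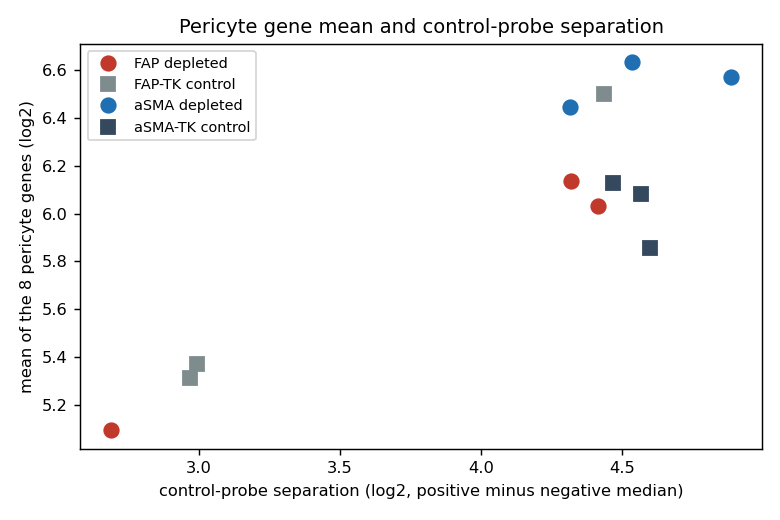
Mean log2 value of the 8 pericyte genes (vertical axis) against control-probe separation in log2 units (horizontal axis), 1 point per array, coloured by group. The 3 arrays of low separation have means of 5.10, 5.31 and 5.37, and the 3 tumours labelled aSMA depleted have means of 6.44 to 6.63, above the aSMA-TK controls at 5.86 to 6.13 with separations in the same range.

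The difference between the depletion effects of the 2 lines was tested directly, and no member passed it (0% of all genes were called, and 5.96% had an unadjusted p under 0.05, no member among them). Abcc9 differed by 1.28 ± 0.63 between the lines (aSMA line minus FAP line, adjusted p = 0.830 by limma) and Kcnj8 by 1.28 ± 0.60 (adjusted p = 0.829). Angpt1 differed by 0.87 ± 0.67 and Rgs5 by 0.68 ± 1.26. Notch3 at 0.065 ± 0.22, Cspg4 at 0.062 ± 0.20, Higd1b at -0.0093 ± 0.11 and Mcam at -0.23 ± 0.91 were nearer 0. The channel genes were thus separate in 1 line and intermixed in the other, without a difference between lines that passed the test. The median over the members was 0.37, against -0.025 for all genes.

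Between the lines no member passed the test, and the direction of several depended on the scale. Cspg4 was higher in all 3 tumours labelled aSMA depleted than in all 3 FAP depleted tumours, by 0.56 ± 0.14 (adjusted p = 0.057 by limma), and higher in all aSMA-TK than in all FAP-TK controls, by 0.49 ± 0.14 (adjusted p = 0.065). On the values as deposited the same differences were -0.045 and -0.024. Notch3 was higher by 0.42 ± 0.16 in the tumours labelled aSMA depleted than in FAP depleted tumours and by 0.36 ± 0.16 in aSMA-TK than in FAP-TK controls, and both turned to negative values as deposited, -0.27 and -0.37. Higd1b was the member lower in the aSMA line in both, by -0.19 ± 0.08 between the depleted groups and -0.18 ± 0.08 between the controls, and it stayed negative as deposited (-0.64 and -0.55). Array medians as deposited were 3.89 to 4.10 in the aSMA line and 4.41 to 4.65 in the FAP line, which the normalization removes.

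Of the 8 members, 5 were separate and higher in the tumours labelled aSMA depleted than in FAP depleted tumours, against 18.2% of all genes, and 2 in aSMA-TK than in FAP-TK controls, against 21.3% of all genes. Higd1b was separate and lower in both, as were 14.8% of all genes between the depleted groups and 13.8% between the controls. An unadjusted p under 0.05 was reached by 5 members between the depleted groups, against 24.6% of all genes, and by 3 between the controls, against 28.2%. Between the depleted groups, Abcc9 stood 1.35 ± 0.45 higher in the tumours labelled aSMA depleted (adjusted p = 0.105 by limma), Kcnj8 1.07 ± 0.43 and Rgs5 1.89 ± 0.89. Without the 3 arrays of low separation these were 0.82, 0.74 and 1.49. Between the aSMA-TK and FAP-TK controls, Abcc9 differed by 0.063, Kcnj8 by -0.20, Angpt1 by -0.042 and Rgs5 by 1.21 ± 0.89, and without the low-separation arrays, which leaves 1 FAP-TK control, by -0.46, -0.99, -1.01 and -1.19. No member was called in either comparison, where 5.18% and 7.8% of all genes were.

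**Figure D4:**
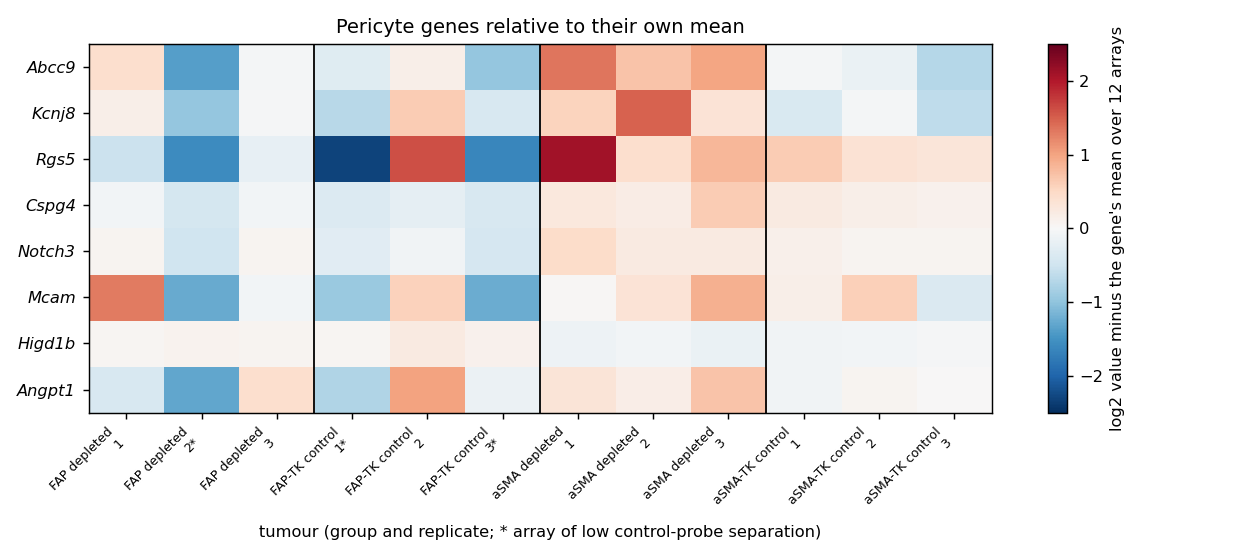
Each pericyte gene (rows) in each tumour (columns, grouped by genotype; stars mark arrays of low separation) as log2 value minus the gene's mean over the 12 arrays, red above and blue below. Rgs5 spans the widest range, 6.51 to 10.93, and Higd1b the narrowest, 3.76 to 4.15; the 3 starred columns are blue for most genes and the tumours labelled aSMA depleted are red for most.

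Other pericyte genes, taken from a list of 20 of which 17 were measured, leaned the same way in the aSMA line. In the tumours labelled aSMA depleted 13 averaged higher and 4 lower than in aSMA-TK controls, 4 were separate and higher, none was called, and the median difference was 0.49. Of all genes, 53.2% averaged higher and 7.43% were separate and higher there. Pdgfrb, the receptor for endothelial platelet-derived growth factor, was at 9.34, 7.40 and 8.98 in the tumours labelled aSMA depleted, against 7.44, 7.88 and 7.20 in the aSMA-TK controls. Replicate 2 of the tumours labelled aSMA depleted lay among the controls, and the difference was 1.06 ± 0.76 (adjusted p = 0.944 by limma). Rgs4 was at 5.87, 5.81 and 5.69 in the tumours labelled aSMA depleted, against 4.93, 5.05 and 5.20 in the aSMA-TK controls. These groups were separate by 0.73 ± 0.45, and those of Art3, an ADP-ribosyltransferase family gene, by 0.25 ± 0.10.

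In the FAP line the same list split evenly, with 9 higher and 8 lower in FAP depleted tumours and a median near 0 (0.0049). Ebf1, a transcription factor gene, had the smallest p of the list, at 5.76, 4.86 and 6.24 in FAP depleted tumours, against 6.00, 7.23 and 6.03 in FAP-TK controls. Its groups overlapped, with a difference of -0.80 ± 0.43 (-0.40 without FAP-TK control replicate 2), and its effect differed between the lines by 1.50 ± 0.61 (adjusted p = 0.829 by limma). Pdgfrb was at 7.69, 5.15 and 7.28 in FAP depleted tumours, against 6.45, 8.45 and 6.80 in FAP-TK controls, a difference of -0.53 ± 0.76. Leaving out replicate 2 of either group turned its sign, to 0.25 for the FAP depleted array and 0.083 for the control array. Tbx18, another transcription factor gene of mural cells, differed by -0.27 ± 0.22, and by 0.0022 with FAP-TK control replicate 2 left out. Steap4, named after its values were seen, was the 1 gene of the list with separate groups, at 5.75, 4.66 and 5.35 in FAP depleted tumours, against 5.78, 6.31 and 6.22 in FAP-TK controls. Of all genes, 2.5% were separate and lower in FAP depleted tumours.

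Across the lines, 2 of the 17 passed the test in both comparisons, Vtn and Gja4, where 5.18% of all genes were called between the depleted groups and 7.8% between the controls. Neither gene was above background on any of the 12 arrays. Vtn, which encodes vitronectin, was at 4.47, 4.42 and 4.51 in the tumours labelled aSMA depleted, against 3.92, 3.88 and 3.96 in FAP depleted tumours, a difference of 0.54 ± 0.08 (adjusted p = 0.010 by limma). Vtn was at 4.37, 4.20 and 4.44 in aSMA-TK controls, against 3.89, 3.90 and 3.89 in FAP-TK controls, a difference of 0.44 ± 0.08 (adjusted p = 0.017 by limma). Gja4, a gap junction gene, differed by 0.53 ± 0.12 between the depleted groups (adjusted p = 0.037) and by 0.58 ± 0.12 between the controls (adjusted p = 0.025). On the values as deposited neither gene was called in either comparison, with Vtn at 0.032 between the depleted groups and 0.035 between the controls and Gja4 at 0.0094 between the depleted groups and 0.14 between the controls.

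The partners of the members were examined by role. Of the Notch pathway genes, 7 of 13 averaged higher and 6 lower in the tumours labelled aSMA depleted, none called. Jag2 was the 1 gene separate and higher, against 7.43% of all genes. The 3 genes separate and lower were Jag1, Dll1 and Hes1, against 5.08% of all genes. The ligand gene Jag1 was at 8.89, 8.53 and 8.97 in the tumours labelled aSMA depleted, against 9.66, 9.48 and 10.43 in the aSMA-TK controls. Every depleted tumour lay below every control, by -1.06 ± 0.42 (adjusted p = 0.944 by limma), and the ligand gene Dll1 differed by -0.67 ± 0.31. In the FAP line 9 of the 13 averaged higher and 4 lower, with Jag2 at 0.31 and Notch4 at 0.29.

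Of the 5 angiopoietin and Tie genes, 2 were separate and higher in the tumours labelled aSMA depleted, against 7.43% of all genes. Angpt2, which competes with angiopoietin 1 for Tek, was at 5.69, 7.03 and 6.29 in the tumours labelled aSMA depleted, against 5.42, 5.27 and 5.66 in the aSMA-TK controls. The groups only just separated, with a difference of 0.89 ± 0.38 (adjusted p = 0.944 by limma). Ptprb, the phosphatase that opposes Tek signalling, differed by 0.99 ± 0.64. In the FAP line Angpt2 differed by 0.67 ± 0.38 with overlapping groups. Of the growth factor genes of the PDGF family, Pdgfc differed by 1.60 ± 0.86 and Pdgfd by 1.05 ± 0.62 in the tumours labelled aSMA depleted, and Pdgfb by 0.68 ± 0.32 in FAP depleted tumours. None was called. With 1 array left out, Pdgfc ranged from 0.58 (without aSMA depleted replicate 1) to 2.58 (without aSMA depleted replicate 3), and Pdgfd was 0.28 without aSMA depleted replicate 1. Angpt2 was 0.54 in the aSMA line without aSMA depleted replicate 2.

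The potassium channel has a second form, made of Kcnj11 and Abcc8 and best known from pancreatic islet cells. Kcnj11 was at 4.83, 5.16 and 5.15 in FAP depleted tumours, against 4.72, 4.23 and 4.40 in FAP-TK controls. The groups were separate by 0.59 ± 0.14 (adjusted p = 1.00 by limma), whereas Kcnj11 differed by -0.058 ± 0.14 in the tumours labelled aSMA depleted. Kcnj11 was above background on no array, and 5.6% of all genes were separate and higher in FAP depleted tumours. Abcc8 differed by 0.54 ± 0.47 in the FAP line and 0.41 ± 0.47 in the aSMA line. The Abcc8 groups overlapped in both lines. The depletion effects of the lines differed by -0.65 ± 0.20 for Kcnj11, which did not pass the test (adjusted p = 0.829 by limma).

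Among the 9 regulators of the Rgs5 subfamily, 3 were separate and higher and 1 separate and lower in the tumours labelled aSMA depleted, Rgs5 not among them. Of all genes, 7.43% were separate and higher and 5.08% separate and lower there. Rgs2 was at 9.58, 9.27 and 9.22 in the tumours labelled aSMA depleted, against 8.23, 7.72 and 8.42 in the aSMA-TK controls. Rgs2 was above background on all 3 tumours labelled aSMA depleted and on no aSMA-TK control, and differed by 1.23 ± 0.32 (adjusted p = 0.944 by limma). Rgs13, known from B cells and mast cells, differed by -2.52 ± 1.51. In FAP depleted tumours Rgs1 differed by 1.80 ± 0.85, and leaving out FAP depleted replicate 3 gave 0.56. Rgs18 differed by -1.01 ± 0.50 there, by -0.38 without FAP-TK control replicate 2 and by -1.66 without FAP-TK control replicate 1. The HIG1 domain genes did not separate in either line, with Higd2a at 0.95 ± 0.89 (0.32 without aSMA depleted replicate 3) and Higd1a at 0.18 ± 0.22 in the tumours labelled aSMA depleted and Higd1a at 0.37 in FAP depleted tumours.

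Markers of other cell types were set beside these values in the same fit, where 53.2% of all genes averaged higher and 7.43% were separate and higher in the tumours labelled aSMA depleted. Of the smooth muscle genes 11 of 12 averaged higher in the tumours labelled aSMA depleted, 2 of them separate (Synpo2 by 0.53 and Mylk by 0.46), but the mean of the list was 5.87, 7.50 and 7.48 in those tumours, against 6.53, 6.18 and 6.16 in aSMA-TK controls. Replicate 1 of the tumours labelled aSMA depleted was thus the lowest of the line for smooth muscle. That tumour was the highest of all 12 for Abcc9, Rgs5 and Notch3, but not for the other members. Within its group it was the lowest for Mcam (8.10) and for the list mean of the other pericyte genes (5.67). Endothelial genes averaged higher for 10 of 12, with 5 separate, and their list mean was 6.46, 6.40 and 7.10 in the tumours labelled aSMA depleted, against 6.43, 6.49 and 6.06 in aSMA-TK controls. Vwf, the gene of von Willebrand factor, was at 5.93, 5.54 and 6.01 in the tumours labelled aSMA depleted, against 4.98, 4.97 and 4.89 in the aSMA-TK controls, a difference of 0.88 ± 0.26. Fibroblast genes averaged higher for 10 of 10, with 4 separate and Dcn highest at 2.71 ± 1.15, and their list mean was 8.76, 9.56 and 10.02 in the tumours labelled aSMA depleted, against 8.88, 8.89 and 8.16 in aSMA-TK controls. Leukocyte genes averaged higher for 6 of 6, with 3 separate, among them Cd3e by 0.99 ± 0.33. None of these genes was called.

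Epithelial genes averaged higher for 3 of 8 in the tumours labelled aSMA depleted and had list means of 14.39, 14.55 and 14.49, against 14.32, 14.19 and 14.89 in the aSMA-TK controls. Cldn4 was separate and higher and Krt7 separate and lower there, as were 7.43% and 5.08% of all genes. Schwann cell genes averaged higher for 2 of 4 with a median of -0.00039. Acinar genes, which encode digestive enzymes, spanned list means of 6.48, 11.13 and 13.43 in the tumours labelled aSMA depleted, against 9.95, 9.63 and 11.51 in the aSMA-TK controls. Islet genes averaged higher for 5 of 6, with list means of 7.76, 5.93 and 6.87 in the tumours labelled aSMA depleted, against 5.96, 5.93 and 6.74 in aSMA-TK controls. In the FAP line, fibroblast genes averaged lower for 10 of 10 in FAP depleted tumours (median -0.59), epithelial genes higher for 8 of 8 (median 0.98), acinar genes higher for 6 of 6 with 3 separate (median 1.41), islet genes higher for 6 of 6 (median 0.48), leukocyte genes lower for 5 of 6 (median -0.41), smooth muscle genes higher for 6 of 12 and endothelial genes higher for 7 of 12. Of all genes, 59.9% averaged higher and 5.6% were separate and higher in FAP depleted tumours. The part of these cell types in the pericyte values was not tested.

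The members other than Higd1b varied together across tumours, as a description over 12 arrays that share groups, lines and array separation. Pairs drawn from all genes were not computed, so how far this is particular to the members was not tested. Without Higd1b, the 21 pairs of members had Pearson r of 0.47 to 0.86 with a median of 0.66, and after group means were subtracted 0.19 to 0.92 with a median of 0.64. In the 6 arrays of the FAP line, 3 of low separation among them, the median was 0.80, and in the 6 arrays of the aSMA line it was 0.50. Abcc9 and Kcnj8, the neighbouring channel genes, had r of 0.78, and Abcc9 and Notch3 had the highest r of all pairs, 0.86. Over the 12 arrays Higd1b had r of -0.85 to -0.13 in its 7 pairs, but -0.22 to 0.65 with a median of 0.22 after group means were subtracted. The median of its pairs was 0.25 in the FAP line and -0.70 in the aSMA line.

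Genes most like the mean of the 8 members were sought among 15066 genes of at least median level, whose own median r was 0.36. They were Gucy1b1 and Atp8b2 (r = 0.97 each) and Ehd3, Jam2 and Adgrf5 (r = 0.96 each). Gucy1b1, a subunit gene of soluble guanylate cyclase, is on the list of other pericyte genes. After group means were subtracted, where the median r was 0.44, they were Gm7180 and Calcrl (0.99 each) and Lix1l, Fli1 and Sgf29 (0.98 each). Among genes listed above, r with the mean of the members was 0.94 for Pecam1, an endothelial gene, 0.92 for Pdgfrb and for Rgs4, 0.91 for Cd248 and 0.89 for Kdr. It was 0.66 for Acta2, 0.39 for Fap and -0.56 for Abcc8. Pecam1, Cd248 and Kdr are named for their high r. Other pericyte genes among those searched ran down to 0.38 for Ndufa4l2 and 0.37 for Cox4i2, near the median of all genes searched. For single members, the most similar gene was G430095P16Rik for Abcc9 (0.93), Ahi1 for Kcnj8 (0.93), Amz2 for Rgs5 (0.98), Gm15427 for Cspg4 (0.95), Pitpnm2 for Notch3 (0.99), Dok1 for Mcam (0.96), Gripap1 for Higd1b (0.97) and Pde2a for Angpt1 (0.96).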

How the data were processed

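Total RNA of 12 pancreas tumours was extracted with Trizol and labelled with biotin, per the labels' protocols, which name a cRNA kit for Illumina arrays, whereas the probe set identifiers are of Affymetrix type. The authors deposited log2 values for 72688 probe sets. The scale was read from the values. How the background was corrected, probes summarized and arrays normalized is not given in the sources used here. Limma is named, with no version, per the submitters' processing notes.

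From these values, 6732 control probe sets were set aside and the other 65956 were quantile normalized, since the array medians differed. A probe set was kept where the platform annotation listed 1 symbol (30604 probe sets; 2146 listed several and 33206 had no listed gene). Symbols were updated by gene identifier through the RefSeq table of GRCm38.p6 (827 changed). Where a gene had several probe sets (355 genes), that of highest mean was kept, leaving 30142 genes. One mean per group was fitted to the 12 arrays by limma 3.58.1 in R 4.3.3 (statmod 1.5.0; 8 residual degrees of freedom) by moderated two-sided tests, with Benjamini-Hochberg adjustment over all genes and an adjusted p under 0.05 as the call. Exact permutation tests were two-sided over 3 arrays against 3, and cannot go below 0.1. The limma fit was tested on simulated data, and the other steps were not. The number of arrays limits the precision.

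The members and gene lists were chosen with earlier results of these data known. Named besides the members are Fap, Acta2, Pdgfrb, genes of smallest p per list, and the genes of highest correlation with the members among those of at least median level. The rule picked the 2 genes of smallest p from every list in the aSMA line. In the FAP line it used the lists of pericyte genes and their partners, and elsewhere the other pericyte genes. Some of the genes it picked are not named, most of them markers of other cell types. Steap4, Hes1, Pecam1, Cd248, Kdr, Ndufa4l2 and Cox4i2 are named outside this rule. Alternatives were other scalings, an offset of 50, a filter on dim genes, averaged probe sets, only the groups compared, other variance models, array weights, separation as a covariate or its 3 low arrays left out, and each array left out in turn. The counts of separate members under other scalings and with arrays left out were chosen after seeing the data. Some list genes were not analysed here, among them P2ry14, Ednra, Gucy1a1, Pdgfra, Higd1c, Egfl7, Pnlip, Amy2a5 and Ins1.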

Additional observations from a re-analysis of the deposited data

How the results depend on the processing

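Over the alternatives, the members of the aSMA line comparison kept their direction in 177 of 177 values and none was called. Leaving out FAP line arrays cannot move these differences, nor can other variance models, averaged probe sets or fitting only the groups compared. The direction was therefore fixed in advance for many of the 177 values. The same holds in the other comparisons for these settings and for arrays outside the groups compared. Abcc9 ranged from 0.90 to 1.48 (adjusted p 0.582 to 1.00) and Kcnj8 from 0.43 to 1.37 (adjusted p 0.670 to 1.00). The 4 members that separated the aSMA line groups, Abcc9, Kcnj8, Notch3 and Angpt1, were separate under median centring and on the values as deposited as well. Of all genes, 8.9% were separate and higher under median centring and 6.05% on the values as deposited. With 1 array left out, 4 to 6 members were separate and higher, as were 9.76% to 17.6% of all genes. Higd1b was separate and lower without aSMA-TK control replicate 1 and without aSMA depleted replicate 2. Of all genes, 11.7% and 12.9% were separate and lower there. The median difference of all 8 members was 0.54 under median centring and 0.25 to 0.48 with 1 array left out. Genes called in that comparison numbered 16 without aSMA depleted replicate 3 and 1 without aSMA-TK control replicate 1, none of them a member.

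In the FAP line 157 of 177 values kept their direction and none was called. The difference turned for Abcc9 under median centring (-0.086), as deposited (-0.085) and with separation as a covariate (-0.21). It turned for Rgs5 under the same settings (-0.12, -0.12 and -0.47), with the offset (-0.095) and without the 3 low-separation arrays (-1.98), and under array weights for Kcnj8 (0.33) and Pdgfrb (0.42). With 1 array left out, differences ran from -0.34 to 0.56 for Abcc9, -0.88 to 0.022 for Angpt1, -0.40 to 0.27 for Kcnj8, -0.14 to 1.14 for Mcam, -1.02 to 0.25 for Pdgfrb, -0.76 to 1.21 for Rgs5 and -0.50 to 0.0022 for Tbx18. Between 0 and 2 members were separate and higher. Rgs5 was so without FAP-TK control replicate 2, as were 15% of all genes. Cspg4 and Notch3 were so without FAP depleted replicate 2, as were 18.7% of all genes. Higd1b was separate and lower without FAP-TK control replicate 1, as were 7.69% of all genes. Over all genes, 13 were called without the 3 low-separation arrays and 4 without FAP depleted replicate 2.

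For the difference between the lines' effects, 155 of 177 values kept their direction and none was called. It turned for Cspg4 (-0.021 as deposited, -0.087 with array weights), Higd1b (0.10 without the low-separation arrays) and Mcam (0.16 under median centring, 0.085 as deposited, 0.10 with the covariate and 0.26 without those arrays). Array weights turned Notch3 (-0.20) and Rgs5 (-0.41). With 1 array left out the ranges were -0.078 to 0.15 for Cspg4, -0.059 to 0.030 for Higd1b, -0.86 to 0.42 for Mcam, -0.12 to 0.16 for Notch3 and -0.52 to 1.45 for Rgs5.

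Across the lines, 160 of 177 values between the controls and 170 of 177 between the depleted groups kept their direction. As deposited, the controls turned for Abcc9 (-0.82), Cspg4 (-0.024), Mcam (-0.31) and Notch3 (-0.37), and the depleted groups for Cspg4 (-0.045), Mcam (-0.23) and Notch3 (-0.27). With the covariate the controls turned for Abcc9 (-0.72), Mcam (-0.52) and Rgs5 (-0.32), and the depleted groups for Mcam (-0.41). Without the low-separation arrays the controls turned for Abcc9 (-0.46), Mcam (-0.46) and Rgs5 (-1.19), and the depleted groups for Mcam (-0.20). Median centring turned Abcc9 (-0.37) between the controls, and array weights turned Angpt1 (0.086) there and Mcam (-0.26) between the depleted groups. The members' median between the controls was -0.46 as deposited, -0.42 with the covariate and -0.46 without the low-separation arrays, and between the depleted groups 0.034 as deposited. With 1 array left out the controls' difference ran from -0.24 to 0.32 for Abcc9, -0.43 to 0.44 for Angpt1 and -0.48 to 0.19 for Kcnj8, and that of the depleted groups from -0.20 to 1.08 for Mcam. Fewer than 3 members were called anywhere: between the controls 2 as deposited (Higd1b and Notch3), 2 with array weights (Cspg4 and Notch3) and 0 to 1 with 1 array left out (Cspg4 or Rgs5), and between the depleted groups 1 as deposited (Higd1b), 1 with a trended prior variance and 1 with array weights (Cspg4 both times). Genes called ran from 0 to 12443 between the controls (2350 as reported) and from 1 to 14287 between the depleted groups (1562 as reported). Of 22 alternatives, Vtn was not called under 3 between the depleted groups and 6 between the controls, and Gja4 under 12 and 8.

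In the aSMA line with 1 array left out, Cela2a ran from -0.022 to 2.43, Ctrb1 from -3.62 to 0.0054 and Fap from -0.052 to 0.57. The dim-gene filter left Rgs5 as the 1 member tested. The cause of these shifts was not tested. No paired analysis was possible because the labels give no replicate number shared by the groups. With 6 of 8 members never above the negative controls' 95th percentile, their signals limit what 3 tumours a group can show.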
